A study of Arabidopsis thaliana with 24 samples.

Results

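BGLU24 (AT5G28510), BGLU27 (AT3G60120) and BGLU44 (AT3G18080) are 3 beta-glucosidase genes of Arabidopsis thaliana. Each is read by 1 probe set that the array's annotation assigns to that gene alone, so the data below are 3 of the 22810 probe sets on the array. They were chosen by their root signals, since earlier results on these arrays had them far above or below the 0.5 h level after 3 h or 24 h of salt. For that reason root differences from 0.5 h are given as a description, and tests are given only for comparisons that use other arrays.

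Col-0 seedlings, the reference accession, were grown in a growth room with a 16 h day. On day 16, after 3 h of light, NaCl was added to their Murashige and Skoog medium to 150 mM. Roots and shoots were taken separately 0.5, 1, 3, 6, 12 and 24 h later, which gives 12 groups of 2 arrays, and total RNA was measured on the ATH1 array. All 24 arrays come from salt-treated wild-type plants. No untreated plants are analysed here, and each time is read against an earlier time of the same treatment. Hours of salt and time of day cannot be told apart, except that 24 h and 0.5 h fall at nearly the same hour of the light period. Whether the 2 arrays of a group come from separate cultures is not stated, so the p-values rest on a spread between arrays that may be technical. In tissue RNA, fewer cells of a type and less RNA per cell cannot be told apart.

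Beta-glucosidases of glycoside hydrolase family 1 remove a glucose, or a related sugar, from a small molecule that the plant stores or transports as its glucoside. In the mustard family they are best known for releasing defence compounds when tissue is broken. Others act on the storage forms of hormones, on flavonol glycosides or on the glucosides of lignin building blocks. BGLU24 belongs by sequence to the same group as PYK10 (BGLU23), the main enzyme of the endoplasmic reticulum (ER) bodies of roots. The enzyme made by BGLU44 is known in vitro for its preference for mannosides. Values below are deposited signals, a fluorescence brightness on a linear scale, and are compared only within a probe set.

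The arrays carried the tissue differences their labels state. Of the shoot markers 3 of 10 had a probe set of 1 gene, among them PRK, phosphoribulokinase of the Calvin cycle, and their summed signal was 75.6 to 402 in roots and 5972 to 11472 in shoots. Of the root markers 1 of 11 was measured, EXPA7, an expansin of root hairs, at 9.84 to 92.2 in roots and 2.57 to 18.5 in shoots, and at 3 h and 6 h its root and shoot values overlapped. The 2 root arrays at 12 h stood apart, with a correlation of 0.857 between them and 2902 probe sets at least 2-fold apart, against 0.961 to 0.984 and at most 883 in the other 11 groups. Medians over all probe sets tested moved by -0.21 to -0.07 on the log2 scale in roots from 0.5 h, and by -0.02 to 0.07 in shoots.

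BGLU24 was a root signal that climbed over the first 6 h of salt and stayed high. Its root signals were 18.0 and 16.2 at 0.5 h, then 41.3 and 57.6 at 1 h, then 182 and 217 at 3 h. They were 439 and 332 at 6 h, then 271 and 398 at 12 h, then 415 and 441 at 24 h. Both arrays of every later time lay above both arrays of 0.5 h, as they did for 19.2%, 26.5%, 29.8%, 21.3% and 29.4% of all probe sets tested at 1, 3, 6, 12 and 24 h. The arrays of 6, 12 and 24 h overlapped between neighbours in the order. The mean went from 17.1 ± 1.28 (SD, n = 2) at 0.5 h to 428 ± 18.6 at 24 h, a ratio of 25.0. The 24 h mean was 1.11 times the 6 h mean. In shoots, the 12 arrays ran from 0.560 to 9.28 with a median of 3.37, between the 2.44th and the 23.7th percentile of their arrays. No shoot array of BGLU24 reached the median of all values, 41.7, which 9 of 12 root arrays did.

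BGLU27 also climbed in roots to 6 h and then came partly back. Its root signals were 31.8 and 12.7 at 0.5 h, then 59.3 and 44.4 at 1 h, then 483 and 520 at 3 h. They were 1029 and 1127 at 6 h, then 500 and 137 at 12 h, then 504 and 420 at 24 h. Both 6 h arrays lay above every other array of BGLU27, while the arrays of 3, 24 and 12 h overlapped in turn. The mean was 22.2 ± 13.5 at 0.5 h, 1078 ± 69.6 at 6 h and 462 ± 59.5 at 24 h (SD, n = 2 each). The 6 h mean was 48.5 times the 0.5 h mean and 2.33 times the 24 h mean. The 0.5 h arrays lie far apart, and leaving out either gave a log2 difference at 6 h of 4.99 or 6.18 in place of 5.58. At 12 h the arrays differ so much that the log2 difference from 0.5 h was 3.55 with both, 2.63 without replicate 1 and 4.48 without replicate 2. In shoots the 12 arrays ran from 0.817 to 10.8 with a median of 6.20, and none reached the median of all values.

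BGLU44 had the opposite placement, with its highest signals in shoots. Its shoot signals were 152 and 194 at 0.5 h, then 248 and 274 at 1 h, then 645 and 558 at 3 h. They were 790.5 and 844 at 6 h, then 350.4 and 499 at 12 h, then 144 and 138 at 24 h. The shoot groups did not overlap, in the order 6, 3, 12, 1, 0.5 and 24 h. Both arrays lay above both of 0.5 h at 1, 3, 6 and 12 h, as for 31.5%, 34.2%, 38.9% and 34.9% of all probe sets tested, and below at 24 h, as for 37.5%. The mean was 173 ± 29.4 at 0.5 h, 817 ± 37.7 at 6 h and 141 ± 4.16 at 24 h (SD, n = 2 each), so the 6 h mean was 4.72 times the 0.5 h mean and 5.81 times the 24 h mean.

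In roots BGLU44 was dimmer and went the other way. Its root signals were 50.2 and 100.5 at 0.5 h, then 68.8 and 73.0 at 1 h, then 54.9 and 39.4 at 3 h. They were 38.5 and 39.0 at 6 h, then 29.0 and 40.2 at 12 h, then 20.6 and 23.9 at 24 h. Both 24 h arrays lay below all 10 other root arrays, and below both of 0.5 h as 46.4% of probe sets did. The mean at 0.5 h, 75.3 ± 35.5, was 3.39 times the 24 h mean of 22.2 ± 2.36. The 2 arrays of 0.5 h lie far apart, and the log2 difference at 24 h was -2.07 without 0.5 h replicate 1 and -1.11 without replicate 2. Likewise it was -0.49 or 0.48 at 1 h, -1.08 or -0.11 at 3 h, -1.32 or -0.36 at 6 h and -1.50 or -0.53 at 12 h. Summed shoot markers in roots were 151 to 199 at 0.5 h, 75.6 to 101 at 6 h and 316 to 402 at 24 h. The sum was thus highest where BGLU44 was lowest, but the markers did not all move together. The brightest of them in roots, RCA, had means of 131 at 0.5 h and 300 at 24 h. PRK also went up, from 28.5 to 47.6, while the marker FMA went down, from 15.7 to 11.2. The part of the shoot markers in the BGLU44 values was not tested.

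**Figure D1:**
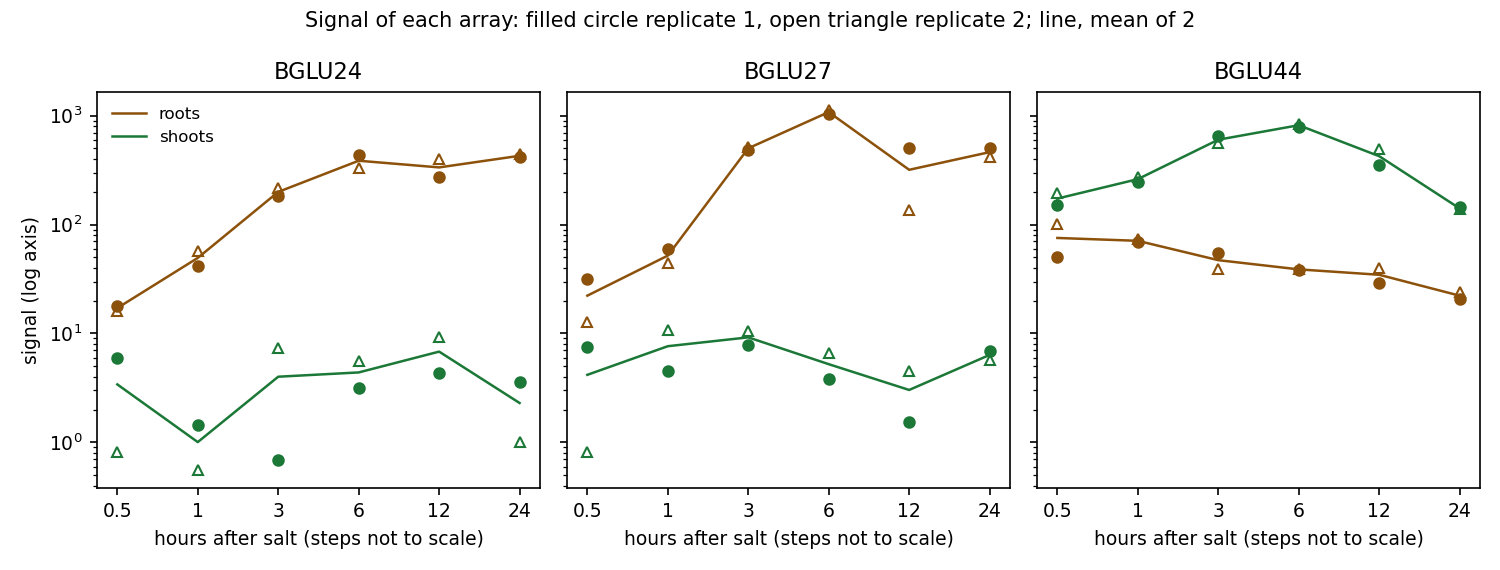
Signal on a log axis against hours of salt (equal steps, not to scale) for BGLU24, BGLU27 and BGLU44, with filled circles for replicate 1, open triangles for replicate 2 and lines through the means of roots and shoots. BGLU24 and BGLU27 end in roots at means of 428 and 462 and reach at most 9.28 and 10.8 in shoots, while BGLU44 peaked in shoots at 817 at 6 h and sat at 22.2 in roots at 24 h.

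On the log2 scale the root differences from 0.5 h at 1, 3, 6, 12 and 24 h had these values, which carry no test because they chose the genes. For BGLU24 they were 1.40, 3.38, 4.31, 4.10 and 4.48 (SE 0.51). For BGLU27 they were 1.25, 4.48, 5.58, 3.55 and 4.36 (SE 0.57). For BGLU44 they were -0.01, -0.59, -0.84, -1.01 and -1.59 (SE 0.26). Over all 15199 probe sets tested, the calls in roots came to 0.388%, 13.1%, 24.2%, 13.5% and 14.5% at these times, where a call is an adjusted p under 0.05 with at least 2-fold. The differences are of log2(signal + 2.205), which shrinks the change of dim genes, and each SE is that of limma's fit over 2 arrays against 2. BGLU24 and BGLU27 passed the filter on dim probe sets through their root arrays alone.

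BGLU24 and BGLU27 also rose in roots between 1 h and 6 h, on arrays outside the 0.5, 3 and 24 h comparisons that chose them. Earlier results of these data were known, and both genes passed the filter through root arrays alone. Their differences here are thus a description with no p, and no independent support for the root rise. A call needed an adjusted p under 0.05 by limma, with Benjamini-Hochberg adjustment over all probe sets tested, and a change of at least 2-fold. BGLU24 rose from 49.4 ± 11.5 to 386 ± 75.6 (SD, n = 2), a log2 difference of 2.91 ± 0.51 (SE). BGLU27 rose from 51.9 ± 10.5 to 1078 ± 69.6, by 4.33 ± 0.57. In this comparison 9.27% of probe sets were called higher and 9.64% lower. BGLU44 went from 70.9 ± 2.99 to 38.8 ± 0.325, a difference of -0.83 ± 0.26 (limma, adjusted p = 0.0161), which is under 2-fold and was not called. Both 6 h arrays of each gene lay outside both 1 h arrays, as they did above for 30.9% and below for 46.3% of all probe sets.

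In shoots BGLU44 passed against 0.5 h at 3, 6 and 12 h. From 0.5 h it was higher by 0.59 ± 0.26 at 1 h (limma, adjusted p = 0.285), which did not pass, where 2.21% of probe sets were called in either direction. It rose by 1.79 ± 0.26 at 3 h (limma, adjusted p = 1.01e-04), where 5.50% were called higher and 10.6% in all. At 6 h the rise was 2.23 ± 0.26 (limma, adjusted p = 7.32e-06), beside 7.82% called higher and 13.5% in all. At 12 h it was 1.27 ± 0.26 (limma, adjusted p = 0.00125), beside 7.54% called higher and 14.0% in all. At 24 h, close to the hour of day of the 0.5 h harvest, BGLU44 stood at -0.29 ± 0.26 (limma, adjusted p = 0.435, 95% interval -0.83 to 0.26) and was not called, where 14.4% of probe sets were. With 1 h in place of 0.5 h as the reference, the 12 h difference was 0.68 (limma, adjusted p = 0.0667) and no longer passed.

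Neither BGLU24 nor BGLU27 passed in shoots at any time against 0.5 h. For each, 0 of 12 shoot arrays reached the median of all values, so a call was unlikely from the start. Its absence does not set them apart from BGLU44. Over these 10 limma tests the adjusted p ran from 0.202 to 0.938, and 0 of 10 had an unadjusted p under 0.05. The differences ran from -0.65 (BGLU24 at 1 h) to 1.06 (BGLU27 at 3 h), and their 95% intervals reached from -1.73 to 2.28. Changes inside each interval are not excluded for that gene and time, and signals as dim as these limit what can be seen. Against 1 h in place of 0.5 h, BGLU24 at 12 h was higher by 1.45 (limma, adjusted p = 0.0483) and passed, where 6.39% of probe sets were called higher, with signals of 4.3 and 9.3 at 12 h.

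The tissues were compared at 1 h and 6 h, whose root arrays did not choose the genes. BGLU24 and BGLU27 passed the filter on dim probe sets through root arrays alone, which favours a higher root value, so their differences between tissues are a description with no p. At 1 h the root minus shoot difference was 4.003 ± 0.51 for BGLU24 and 2.52 ± 0.57 for BGLU27. BGLU44, which passed the filter with 12 of 12 shoot and 5 of 12 root arrays, was lower in roots, at -1.85 ± 0.26 (limma, adjusted p = 8.84e-06). These values stand against a wide background, with 23.5% of probe sets called higher in roots and 18.3% lower at 1 h. At 6 h the root minus shoot difference was 5.89 ± 0.51 for BGLU24, 7.21 ± 0.57 for BGLU27 and -4.32 ± 0.26 for BGLU44 (limma, adjusted p = 3.05e-10), beside 23.5% called higher and 22.9% lower. Both arrays of BGLU24 and BGLU27 lay above both shoot arrays at 6 h, as in 43.6% of probe sets, and those of BGLU44 below, as in 43.1%.

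The change from 1 h to 6 h was also compared between the tissues. For BGLU24 and BGLU27 it is a description with no p, because they passed the filter through root arrays alone. The root change exceeded the shoot change by 4.69 ± 0.81 for BGLU27, whose shoot means were only 7.64 at 1 h and 5.23 at 6 h. This comparison called 8.19% of probe sets higher and 13.1% lower. For BGLU44 the root change was below the shoot change, by -2.47 ± 0.36 (limma, adjusted p = 2.05e-04), since its shoot mean went from 261 ± 18.0 to 817 ± 37.7 while its root mean fell to 38.8. For BGLU24 the difference was 1.89 ± 0.72. Its shoot signals, 1.5 and 0.6 at 1 h and 3.2 and 5.6 at 6 h, were near the constant added before taking logs, and with a constant of 16 the difference was 2.36.

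**Figure D2:**
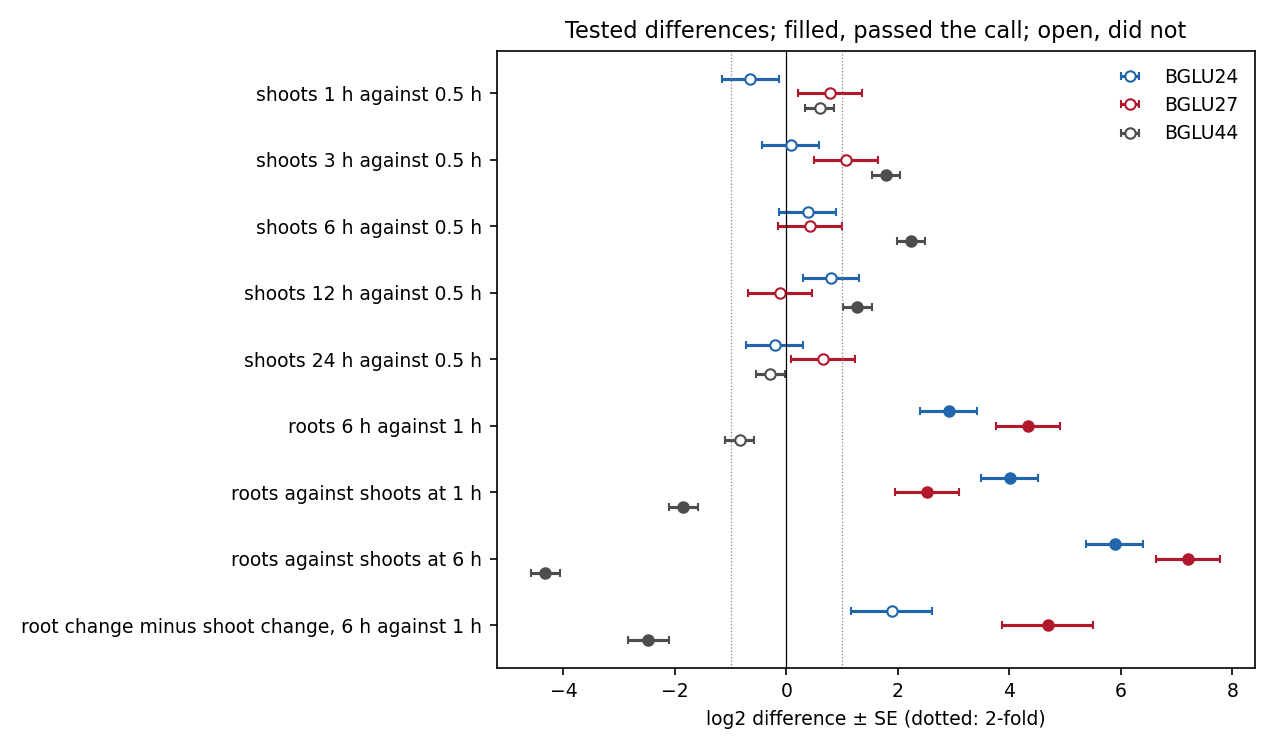
Log2 differences with their SE for BGLU24, BGLU27 and BGLU44 in 9 comparisons, filled where the call was made and open where it was not, with dotted lines at 2-fold. For roots at 6 h against 1 h, roots against shoots and root minus shoot change, the BGLU24 and BGLU27 points are a description. Their root arrays brought both genes past the filter, so a filled point there is not counted as a passed test. BGLU44 rose in shoots at 3, 6 and 12 h (1.79, 2.23 and 1.27), and the open points of BGLU24 and BGLU27 in shoots lie between -0.65 and 1.06.

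Set in order over the 12 groups, the levels of BGLU24 put all 6 root groups above all 6 shoot groups. The root order was 24, 6, 12, 3, 1 and 0.5 h, and 7 of 11 pairs of neighbours overlapped, among them 24 with 6 h and 6 with 12 h. For BGLU27 the root order was 6, 3, 24, 12, 1 and 0.5 h, again above all shoot groups and with 7 of 11 neighbouring pairs overlapping. In both genes all 5 neighbouring pairs of shoot groups overlapped, so neighbouring times cannot be ordered there, although groups farther apart in the order can be separate, as BGLU24 at 12 h and 1 h and BGLU27 at 3 h and 12 h were. For BGLU44 all 6 shoot groups lay above all 6 root groups, and 2 of 11 pairs overlapped, roots at 0.5 and 1 h and roots at 6 and 12 h.

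The other beta-glucosidase genes give the setting. Of 47 genes listed for the family, 22 had a probe set of 1 gene, which leaves 19 beside the genes above, and 10 of those passed the filter. The 9 that did not pass had highest signals of 7.01 to 55.4. A gene dim in shoots and in roots at 0.5 h and 1 h could pass only by rising in roots, which favours calls of a rise. The myrosinases TGG1 and TGG2, which release mustard oils, and PEN2, which acts in defence against fungi, were among the 25 without such a probe set. In roots at 24 h against 0.5 h, 4 of the 10 were called higher and 0 lower by limma, where 8.02% of all probe sets were called higher and 6.52% lower. At an unadjusted p under 0.05, 6 were higher and 1 lower. Their median difference was 0.74, and that over all probe sets was -0.14.

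Among these other called genes, BGLU31 and BGLU32 had the largest differences from 1 h to 6 h in roots. Their shoot signals reached at most 10.2 and 5.23, so both passed the filter through root arrays alone, which favours a rise. BGLU31 had 9.73 and 15.7 at 1 h, then 254 and 155 at 6 h, then 74.1 and 77.9 at 24 h. It rose by 3.78 ± 0.54 from 1 h to 6 h (limma, adjusted p = 1.14e-04) and was 2.32 ± 0.54 above 0.5 h at 24 h (limma, adjusted p = 0.00412). BGLU32 had 16.2 and 37.4 at 1 h, then 464 and 227 at 6 h, then 5.79 and 17.3 at 24 h. It rose by 3.60 ± 0.68 from 1 h to 6 h (limma, adjusted p = 7.55e-04) and at 24 h was at -0.67 from 0.5 h and not called. At 24 h its signals were thus back in the range of 0.5 h or below, while BGLU27 was at 504 and 420.

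BGLU16, BGLU40 and BGLU46 were also called in roots. BGLU16 went in roots from 204 ± 24.7 at 0.5 h to 526 ± 26.4 at 24 h, by 1.36 ± 0.26 (limma, adjusted p = 0.00112). BGLU40 went from 23.9 ± 11.2 to 94.7 ± 7.45, by 1.96 ± 0.28 (limma, adjusted p = 1.15e-04). BGLU40 was brighter in shoots, where it fell by 1.30 on the log2 scale at 6 h, from 421 ± 3.85 to 170 ± 13.1 (limma, adjusted p = 0.00196), where 5.73% of probe sets were called lower. BGLU46, known for cleaving the glucosides of lignin building blocks, went from 168 ± 29.5 to 385 ± 45.7 in roots at 24 h, by 1.19 ± 0.36 (limma, adjusted p = 0.0174). That call was lost without 0.5 h replicate 2 (limma, adjusted p = 0.116) and without either 24 h array (adjusted p = 0.0562 and 0.0954). Between 1 h and 6 h in roots 6 of the 10 were higher and 0 lower at an unadjusted p under 0.05 by limma. Of the 10, 4 were called higher and 0 lower, beside 9.27% and 9.64% of all probe sets. They were BGLU31, BGLU32, BGLU40 (1.44 ± 0.28) and BGLU46 (1.27 ± 0.36), and the call of BGLU46 was lost without replicate 2 of 1 h or of 6 h (limma, adjusted p = 0.0560 and 0.0889).

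In shoots 1 of the 10 was called higher and 1 lower at 24 h, beside 7.47% and 6.96% of all probe sets. BGLU25 went from 35.9 ± 1.30 to 134 ± 10.7, by 1.83 ± 0.18 (limma, adjusted p = 1.82e-06). PYK10 went from 501 ± 133 to 226 ± 29.4, by -1.12 ± 0.33 (limma, adjusted p = 0.0153), and the call was lost without replicate 1 of 0.5 h (0.148) or of 24 h (0.0995). In roots PYK10, which shares a sequence group with BGLU24, stayed within 2841 to 4295 and was not called at any time, while BGLU24 spanned 16.2 to 441. Of the genes tied to ER bodies and the PYK10 complex 5 of 13 were measured, and in roots at 24 h 1 was called higher, the lectin gene JAL22 by 1.53, and 0 lower. In shoots at 24 h 4 of those 5 were called lower, among them NAI1, a transcription factor of ER body formation, by -1.70, and 0 higher.

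**Figure D3:**
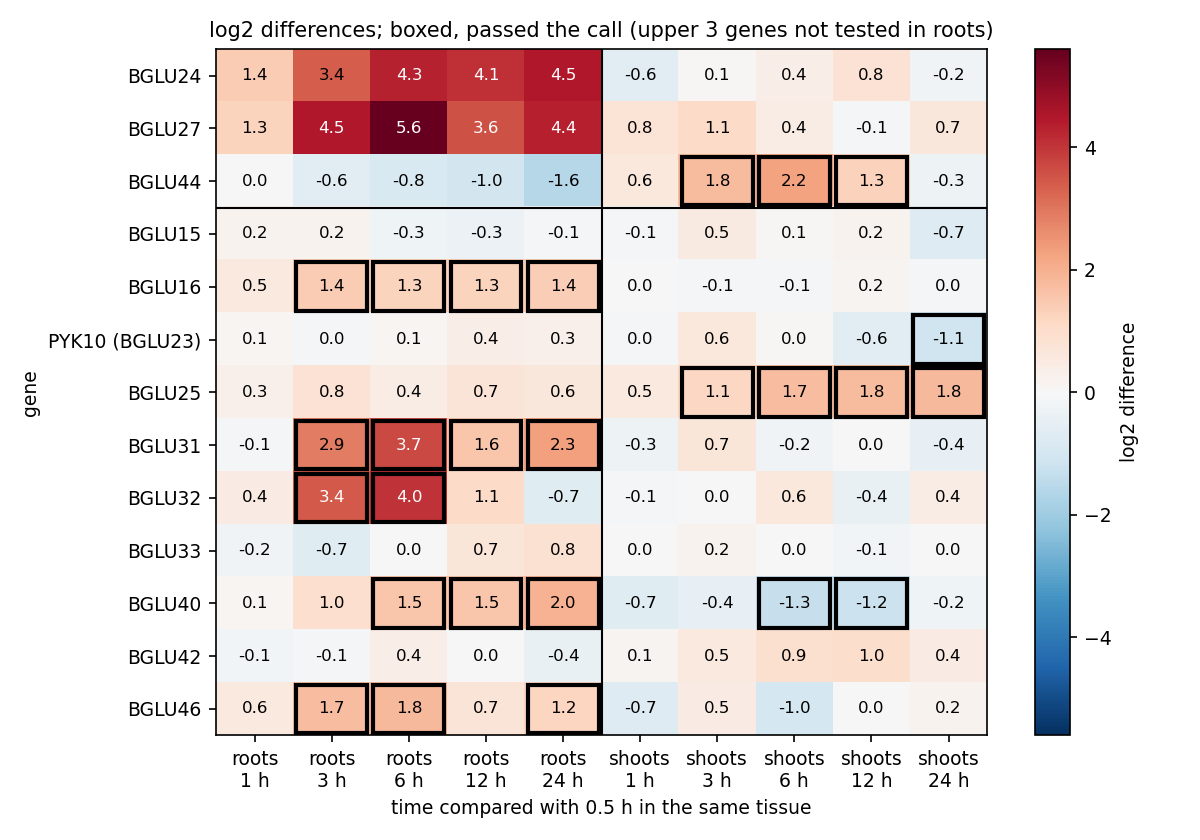
Log2 difference from 0.5 h at 1, 3, 6, 12 and 24 h in roots and shoots for BGLU24, BGLU27 and BGLU44 and the 10 other family genes tested, as colour, with boxes around calls. The root values of BGLU24, BGLU27 and BGLU44, up to 4.48, 5.58 and down to -1.59, chose these genes and carry no test, and the boxes of BGLU44 in shoots stand at 3, 6 and 12 h (2.23 at 6 h).

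BGLU27 and BGLU44 lie on chromosome 3 and BGLU24 on chromosome 5. The gene next but one to BGLU24 is AT5G28520, whose root signals were 3.16 and 4.49 at 0.5 h, then 143 and 53.4 at 6 h, then 690.0 and 656 at 24 h. It rose in roots by 3.19 ± 0.62 from 1 h to 6 h (limma, adjusted p = 9.11e-04), and 24 h stood 6.82 ± 0.62 above 0.5 h (limma, adjusted p = 3.38e-06). Its shoot arrays read 1.56 to 4.60, so it too passed the filter through root arrays alone, which favours a rise. BGLU24 and AT5G28520 share dim shoots and rising roots, though AT5G28520 was still climbing from 6 h to 24 h where BGLU24 was level. On the other side, AT5G28500 read 17.1 to 37.5 in roots and was not called there at any time from 0.5 h, and it was brighter in shoots, at 344 to 718.

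BGLU27 has BGLU16 beside it and then DIN2 (BGLU30), a gene without a probe set of its own here. BGLU16 was already at 204 in roots at 0.5 h, and its difference from 1 h to 6 h was 0.72 ± 0.26 (limma, adjusted p = 0.0370), under 2-fold, against 4.33 for BGLU27. AT3G60110, on the other side of BGLU27, was too dim to be tested. Near BGLU44, the family gene BGLU43 also failed the filter, with a highest signal of 16.7, so it was measured but not tested. Its shoot means were 1.53 at 0.5 h, 0.69 at 1 h, 11.7 at 3 h, 11.1 at 6 h, 8.36 at 12 h and 1.80 at 24 h. In roots they were 3.90 at 0.5 h and 11.8 at 6 h. Signals this dim do not show whether BGLU43 shares the BGLU44 pattern. The remaining neighbours of BGLU44, NRPD2B and MYB4R1 among them, had no probe set of 1 gene.

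**Figure D4:**
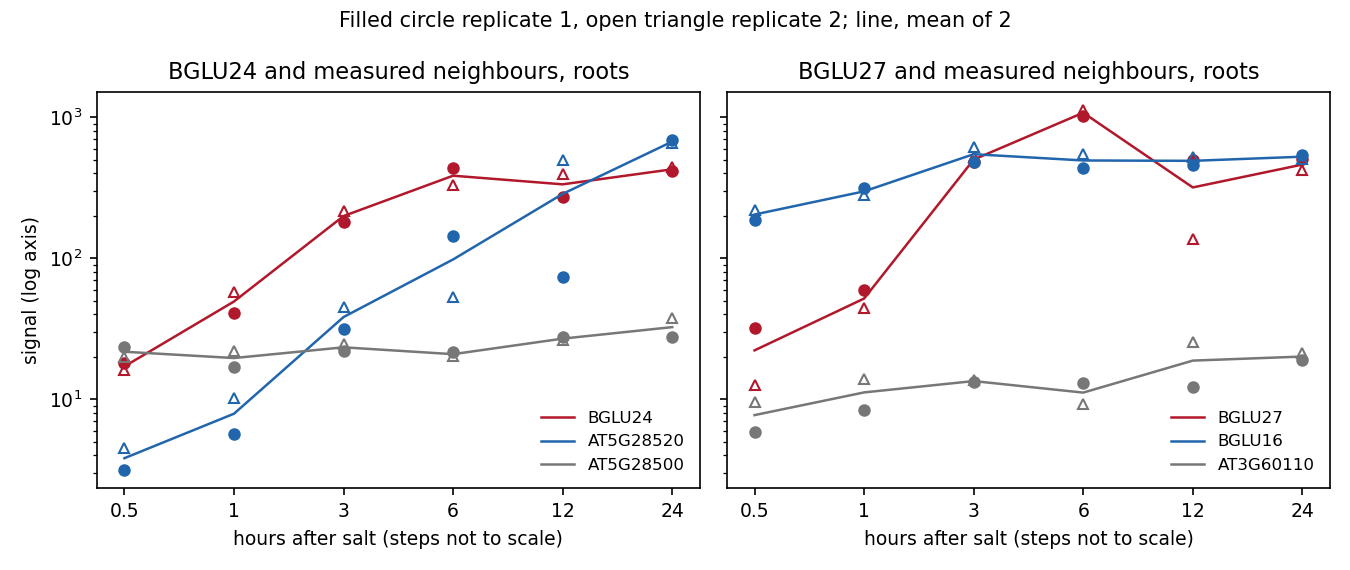
Root signal on a log axis against hours of salt (equal steps, not to scale) for BGLU24 with its neighbours AT5G28520 and AT5G28500, and for BGLU27 with BGLU16 and AT3G60110, with a point per array and lines through the means. Levels are to be read within a gene: AT5G28520 goes from 3.82 at 0.5 h to 673 at 24 h, and BGLU16 stays between 187 and 611.

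Genes with the most similar profile were found by Pearson's r on the log2 scale among 8123 probe sets of 1 gene. The values are a description, since arrays of a group share their source and the split between tissues alone raises r. Over all 24 arrays BGLU24 was closest to AT5G40690 (0.970), ChiC, a class V chitinase (0.969), AT3G53600 (0.967) and AT1G30700 (0.962). BGLU27 was closest to AT1G14550 (0.984), CCOAMT, a caffeoyl-CoA 3-O-methyltransferase (0.979), AT4G19460 (0.979) and AT2G46150 (0.977). BGLU44 was closest to AT1G28150 (0.971), AT4G33670 (0.967), AT1G73470 (0.958) and AT2G21380 (0.958).

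Over the 12 root arrays the closest genes were mostly others. BGLU24 had AT3G02480 (0.974), AT2G17760 (0.973), AT1G30700 (0.968) and AT1G73740 (0.963), so AT1G30700 was in both of its lists. BGLU27 had AT3G12910 (0.994), AT1G51915 (0.983), AT5G61560 (0.981) and AT2G32020 (0.981). BGLU44 had AT4G24780 (0.953), AT1G62970 (0.952), AT2G37500 (0.944) and AT3G27400 (0.938). BGLU24 and BGLU27 correlated with each other at 0.949 over 24 arrays and 0.897 over the root arrays. BGLU27 was rank 20 of the genes most like BGLU24 over 24 arrays and rank 84 over the root arrays. BGLU44 ran against both, at -0.844 with BGLU24 and -0.838 with BGLU27 over 24 arrays.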

How the data were processed

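The deposited values are MAS5 signal intensities on a linear scale, made by the authors with Affymetrix's MAS5 algorithm per the submitters' processing notes, and the version and scaling are not given in the sources used here. Array medians were left as deposited. BGLU24, BGLU27, BGLU44 and the gene lists were chosen with earlier results of these data known. Of 22810 probe sets, 13513 were assigned to 1 gene by the platform annotation, 503 to several and 8794 to none; names came from the TAIR10.1 gene table, in which 13436 matched. The 64 control probe sets were left out. Values were taken as log2(signal + 2.205), the constant being the 10th percentile of all values outside control probe sets. The 15199 probe sets with at least 2 of 24 arrays at or above the median of 41.7 were fitted in limma 3.58.1 (R 4.3.3; lmFit, eBayes with trend) with 12 group means over 24 arrays, 12 residual degrees of freedom and two-sided tests. A call needed a Benjamini-Hochberg adjusted p under 0.05 and 2-fold. The fit was tested on simulated data. Named genes were the 3 genes, called family genes (at most the 5 highest and 5 lowest of each comparison), the nearest 2 genes on each side and the 4 most similar profiles. Having 2 arrays a group limits the precision. Alternatives were other constants, filters, centring, quantile normalization, 1 h as reference, a replicate block and leaving out arrays. Array probe sequences and a genome were not used here, so cross-hybridisation between related family genes was not examined.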

Additional observations from a re-analysis of the deposited data

Results flagged for a closer look

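The difference between the root and the shoot change from 1 h to 6 h was 4.69 ± 0.81 for BGLU27. That value is a description with no p, because root arrays alone brought BGLU27 past the filter. For BGLU44 the difference, tested as an interaction in limma, passed in the opposite direction at -2.47 ± 0.36 (adjusted p = 2.05e-04). Both are listed because the fit called a difference between the tissues in the change over the same hours. For BGLU27 that call is no support for a difference, because of the filter.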

How the results depend on the processing

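In shoots from 0.5 h, leaving out 1 array at a time turned the sign at 4 of 5 times for BGLU24 and for BGLU27, and kept it for BGLU24 at 12 h (0.081 to 1.52) and BGLU27 at 3 h (0.22 to 1.91). BGLU24 lay within -1.37 to 0.073 (1 h), -0.78 to 0.94 (3 h), -0.34 to 1.10 (6 h) and -0.93 to 0.51 (24 h). BGLU27 lay within -0.061 to 1.63 (1 h), -0.42 to 1.27 (6 h), -0.96 to 0.73 (12 h) and -0.19 to 1.50 (24 h). Quantile normalization gave -0.036 for BGLU24 in shoots at 3 h. With 1 h as the reference BGLU27 in shoots was -0.35 (6 h) and -0.13 (24 h), BGLU24 was 0.44 (24 h) and 1.45 (12 h; limma, adjusted p = 0.0483, passed), and BGLU44 was 0.68 (12 h; limma, adjusted p = 0.0667, lost). The root minus shoot change of BGLU24, 1.89, was 2.36 with a constant of 16, 2.05 with median centring and 1.89 without both root 12 h arrays. It ran from 1.61 to 2.16 without 1 array. Other family genes called in shoots at 6 h were 4 without the fold limit and 1 against 1 h, in place of 2. At 24 h the count was 1 to 3 without 1 array, with 1 when replicate 1 of 0.5 h or of 24 h was left out. For the 27 results fitted with a test for BGLU24, BGLU27 and BGLU44, 895 of 921 alternative values kept direction and side of the threshold. These include results given above as a description. Many of the fits left out an array of a group outside the comparison, which cannot move its log2 difference. The share therefore does not measure how robust the results are. Of their root differences from 0.5 h, which have no test, a constant of 16 moved 9 by at least 1 SE, with 24 h at 3.74, 3.69 and -1.20. Among 66 pairs of groups, deviations of same-numbered arrays correlated between -0.26 and 0.23, with 5 over 0.1, so the numbers were not taken to pair the samples. Each group holds 1 array of each number, so a replicate block cannot move a log2 difference, only its SE and p. With it 0 of 56 values changed, which was fixed in advance for the root differences from 0.5 h, judged by their estimate alone. BGLU44 in shoots at 6 h had an adjusted p of 6.83e-06 (limma) in that fit. Signal near background limits the shoot values of BGLU24 and BGLU27.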
